A study of Mus musculus with 16 samples.

Results

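The ephrins and their Eph receptors, the semaphorins and their plexin and neuropilin receptors, the Slits and their Robo receptors, and the netrins and their receptors were examined in mouse neural crest stem cells. The set was chosen by gene family, with earlier results of these data known. It lists 59 genes in 13 families, of which 58 were measured out of 18194 genes on the array, 32 ligands and 26 receptors. Ephb2, an Eph receptor of the B class, has no probe set that carries its symbol alone and was not analysed here. Each gene is represented by its brightest probe set, a group of short probes that read the transcripts of a gene, and 43 of the 58 genes have more than 1. Levels are log2 intensities. They compare a gene between groups and not with another gene, because probe sets differ in how brightly they bind.

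RNA of primary mouse neural crest was hybridised to 16 Affymetrix arrays in 4 groups of 4. Neural crest stem cells (NCSCs) primed to glia (Glia 1 to 4), to neurons (Autonomic 1 to 4) or to mesenchyme (Mesenchymal 1 to 4) by instructive growth factors were compared with migratory NCSCs that had not been primed (NCSCs 1 to 4). Per the labels, the cells came from neural crest and were kept in NCSC medium. The sources used do not give the strain, the embryonic age, the growth factors or the duration of priming, nor do they state whether replicates were separate cultures.

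These proteins tell migrating cells and growing axons where to go. Ephrins sit on the cell surface and signal to Eph receptors on the cell they touch, and the B-class ephrins signal back into their own cell as well. Class 3 semaphorins are secreted and act through neuropilins paired with plexins, while the semaphorins of other classes are mostly bound to the membrane and act on plexins directly. Slits repel cells through Robo receptors, and netrins attract through Dcc or repel through the Unc5 receptors. In the embryo, ephrin-B, semaphorin 3 and Slit signals keep trunk neural crest cells out of some tissue segments and steer them along others.

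In all, 3 members passed the test in any comparison, an adjusted p under 0.05 in limma with Benjamini-Hochberg adjustment over all genes. They are the netrin receptor gene Unc5b, the membrane semaphorin gene Sema6d and the ephrin gene Efnb2. The 250 bases before their annotated starts are shown because these are the members that passed the test. They are from RefSeq on GRCm38.p6, read 5′ to 3′ on the strand of the gene, with matches to the motifs searched in capitals. RefSeq windows were found for 50 of the 59 genes, and where a gene has several the most 5′ one was taken. Which start these cells use was not tested. The windows lie at chr8:8661243-8661492 (minus strand) for Efnb2, chr2:124089719-124089968 (plus strand) for Sema6d and chr10:60831582-60831831 (minus strand) for Unc5b.
Efnb2: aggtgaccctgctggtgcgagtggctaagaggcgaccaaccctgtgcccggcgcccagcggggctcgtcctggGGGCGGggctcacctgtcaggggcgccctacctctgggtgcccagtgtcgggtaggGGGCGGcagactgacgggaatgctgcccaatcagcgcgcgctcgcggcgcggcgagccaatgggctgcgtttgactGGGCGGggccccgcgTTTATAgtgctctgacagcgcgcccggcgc
Sema6d: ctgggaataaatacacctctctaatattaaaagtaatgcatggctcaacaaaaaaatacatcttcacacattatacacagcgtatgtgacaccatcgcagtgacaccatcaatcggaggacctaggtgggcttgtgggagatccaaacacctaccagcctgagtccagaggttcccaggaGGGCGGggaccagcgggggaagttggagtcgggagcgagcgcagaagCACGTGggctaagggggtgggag
Unc5b: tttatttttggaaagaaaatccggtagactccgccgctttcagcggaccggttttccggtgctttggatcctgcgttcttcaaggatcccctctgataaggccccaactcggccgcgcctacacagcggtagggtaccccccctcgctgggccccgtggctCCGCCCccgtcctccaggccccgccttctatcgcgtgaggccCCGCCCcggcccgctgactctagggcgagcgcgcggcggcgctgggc
The motifs were searched on both strands. The GC box GGGCGG occurs 3 times before Efnb2, 1 time before Sema6d and 2 times before Unc5b, and 32.7% of all 32851 such windows hold it. The letters of the TATA box, TATAAA, occur 1 time, 30 bases before the start of Efnb2, and 12.4% of windows hold them on either strand. This match lies on the strand opposite the gene, so the printed window reads TTTATA. Of the 3 windows, that of Sema6d alone holds the letters ACGTG, where the 2 matches overlap on opposite strands, and 16.6% of windows hold them. The CAGA box CAGACA is in none of these 3 windows and in 17.1% of all. Guanine and cytosine make up 72% of the Efnb2 window, 52.4% of that of Sema6d and 66.8% of that of Unc5b. A match is a description of the letters and not a binding site.

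Arrays of 1 group correlated at 0.899 to 0.957, and arrays of different groups at 0.904 to 0.958. The array Autonomic 1 stood apart from its group, at -39.67 on the first principal component, where the NCSCs arrays lay between -49.65 and -21.18 and the other Autonomic arrays between 28.9 and 57.27. Without it, 2 members (Epha5 and Unc5b) were called in Autonomic against NCSCs, and 4 of the 58 changes took the other sign. Values without it are given beside several of the Autonomic changes described here. The 3′ to 5′ log2 ratio of the Gapdh control probe sets, a sign of RNA quality, averaged 2.95 ± 0.391 in Glia, 2.85 ± 0.242 in Autonomic and 2.96 ± 0.222 in Mesenchymal, against 2.35 ± 0.187 in NCSCs (SD, n = 4 each). Xist, the RNA that coats the inactive X chromosome of female cells, lay between 2.61 and 5.34 in Glia, between 3.15 and 10.6 in Autonomic and between 2.68 and 11.2 in Mesenchymal, against 6.39 to 10.5 in NCSCs. No measured marker of the labelled lineage passed the test against NCSCs: 0 of 10 glial markers in Glia, 0 of 12 autonomic neuron markers in Autonomic and 0 of 12 mesenchyme and smooth muscle markers in Mesenchymal. Of 12 crest markers, Ngfr alone was called, lower in Glia (log2 change -1.87, adjusted p = 0.0479) and in Autonomic (-2.75, adjusted p = 0.0055). In Mesenchymal Ngfr changed by 0.32 (adjusted p = 0.891). The glial marker Cnp was called lower in Autonomic than in NCSCs (-2.905, adjusted p = 0.0465). All 8 neural tube markers had a mean below that of NCSCs in Glia, 0 of them past the test. Their summed intensity was 117 to 317 in Glia, 122 to 2155 in Autonomic and 175 to 1217 in Mesenchymal, against 286 to 2078 in NCSCs. Of 12 mesenchyme and smooth muscle markers 10 had a higher mean in each primed group than in NCSCs, and their summed intensity was 3287 to 4600 in Glia, 1110 to 5917 in Autonomic and 1723 to 6774 in Mesenchymal, against 769 to 2979 in NCSCs. Blood marker sums were 73.7 to 421 in Glia, 80.2 to 612 in Autonomic and 180.3 to 507 in Mesenchymal, against 57.5 to 498 in NCSCs. Among them the globin gene Hba-x averaged 2.16 ± 0.229 in Glia, against 5.24 ± 1.98 in NCSCs (SD, n = 4 each), without overlap (log2 change -3.08, adjusted p = 0.428). Laptm5, the brightest blood marker in Glia, went the other way, at 6.17 ± 1.80 in Glia against 3.30 ± 1.49 in NCSCs (SD, n = 4 each). Its arrays overlapped (log2 change 2.87, adjusted p = 0.4165). Of 9 measured blood markers, 6 had a higher mean in Glia than in NCSCs and 3 a lower one. Epithelial marker sums were 87.4 to 217 in Glia, 93.1 to 757 in Autonomic and 81.7 to 139.9 in Mesenchymal, against 132 to 323 in NCSCs. Endothelial and melanocyte marker sums did not exceed 154 on any array. Whether these markers, the Gapdh ratio or Xist have a part in the results was not tested beyond the fits given beside them. No probe set was listed at 0, the lowest intensity being 1.49. In bulk RNA, fewer cells of a type and less RNA per cell cannot be told apart.

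In Glia against NCSCs, 3 of 58 guidance members passed the test, 2 higher (Unc5b and Sema6d) and 1 lower (Efnb2), where 0.511% of all genes did (0.187% higher and 0.324% lower). At an unadjusted p under 0.05 there were 16 members, and 9.91% of all genes. In Autonomic against NCSCs 1 member, Unc5b, rose, where 0.434% of all genes passed (0.132% higher). At an unadjusted p under 0.05 there were 8 members and 9.8% of all genes. In Mesenchymal against NCSCs limma called 0 members, with 7 at an unadjusted p under 0.05 where 7.7% of all genes reached that, and 0.022% of all genes passed. The arrays of Glia and NCSCs did not overlap for 5 members that were higher and 9 that were lower in Glia, where 3.02% and 4.16% of all genes behaved so. For Autonomic these counts were 2 higher and 2 lower (2.29% and 3.24% of all genes), and for Mesenchymal 1 higher and 2 lower (2.41% and 3.29%). The median log2 change over the members was -0.12 in Glia, -0.25 in Autonomic and -0.26 in Mesenchymal, beside -0.0062, 0.0042 and -0.0058 over all genes. With dim genes left out, the medians over the genes that remain were -0.11, -0.086 and -0.11. Of the members, 34 of 58 lay above the median gene level. The 3 comparisons share the NCSCs arrays, so their changes are not independent of each other.

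**Figure D1:**
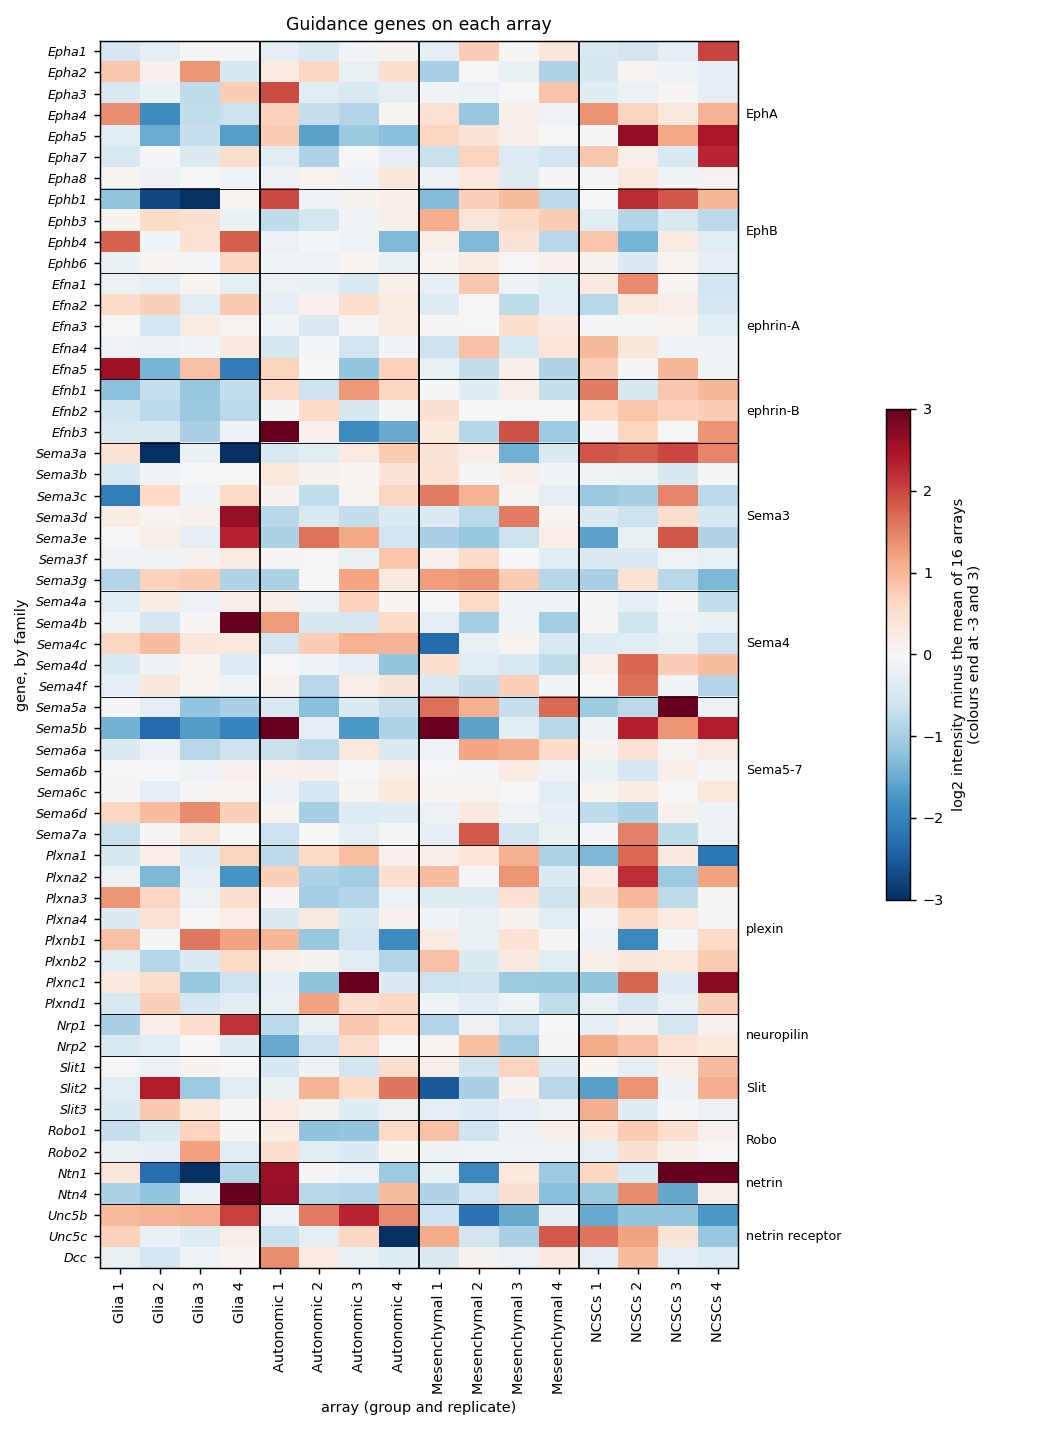
Log2 intensity of the 58 guidance genes (rows, by family) on each of the 16 arrays (columns), minus the gene's mean over all arrays, with colours ending at -3 and 3. Sema3a is high on the 4 NCSCs arrays, Unc5b is high on the Glia arrays and on Autonomic 2 to 4, and Sema5b is low on all Glia arrays.

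Among the netrin receptors, Unc5b rose in both Glia and Autonomic. Unc5b, a dependence receptor through which netrin repels cells, had levels of 7.52, 7.59, 7.68 and 8.63 in Glia and of 6.39, 8.12, 8.86 and 7.98 in Autonomic, against 5.08, 5.41, 5.40 and 4.85 in NCSCs. Every Glia and Autonomic array lay above every NCSCs array, and Autonomic 1 was the lowest of the 8. Unc5b rose in Glia by a log2 change of 2.67 (SE 0.49, adjusted p = 0.0335), which is 6.37-fold. In Autonomic it rose 6.30-fold (adjusted p = 0.0307), and without Autonomic 1 the log2 change was 3.14 (adjusted p = 0.00244). Mesenchymal levels of 5.96, 4.36, 5.06 and 6.34 overlapped those of NCSCs, with a log2 change of 0.24 (95% interval -0.81 to 1.30). Glia and Autonomic differed by 0.02 (95% interval -1.04 to 1.07), and by -0.47 without Autonomic 1. Glia exceeded Mesenchymal by 2.43 (adjusted p = 0.0672) and Autonomic exceeded it by 2.41 (adjusted p = 0.0603), neither past the test. Without Autonomic 1 the difference between Autonomic and Mesenchymal was 2.89 (adjusted p = 0.00549). The second, dimmer probe set of Unc5b changed by 0.72 in Glia (SE 0.34, adjusted p = 0.508) and by 0.96 in Autonomic (adjusted p = 0.318), in the same direction and smaller. The call in Glia was lost when any single Glia or NCSCs array was left out (adjusted p 0.0601 to 0.107), with log2 changes of 2.41 to 2.78. In Autonomic it was lost without any single NCSCs array or without Autonomic 2, 3 or 4 (adjusted p 0.0584 to 0.0992).

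The other netrin receptors did not pass the test. Unc5c, the brightest netrin receptor and a relative of Unc5b, changed by -0.44 in Glia, -1.46 in Autonomic and -0.15 in Mesenchymal. Its Autonomic arrays ran from 3.25 to 7.34, against 5.57 to 8.32 in NCSCs, and Autonomic 4 was the low one. Autonomic and Mesenchymal differed by -1.31 for Unc5c (95% interval -3.10 to 0.48). This difference was -0.47 without Autonomic 4, -0.82 without Mesenchymal 4 and -1.41 without Autonomic 1. Dcc, the receptor through which netrin attracts axons, changed by -0.19, 0.27 and -0.06 in Glia, Autonomic and Mesenchymal, and by -0.11 in Autonomic without Autonomic 1.

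Netrins are the ligands of these receptors. Ntn1, the netrin of the floor plate of the neural tube, had levels of 5.53, 2.89, 2.17 and 4.29 in Glia, 7.76, 5.22, 4.99 and 4.08 in Autonomic and 4.98, 3.24, 5.50 and 4.09 in Mesenchymal, against 5.80, 4.72, 8.37 and 9.21 in NCSCs. NCSCs 3 and NCSCs 4 were high and the groups overlapped. The log2 changes of Ntn1 were -3.31 in Glia (95% interval -5.52 to -1.09, adjusted p = 0.242), -1.51 in Autonomic (adjusted p = 0.697) and -2.58 in Mesenchymal (adjusted p = 0.566). In Autonomic the Ntn1 change was -2.26 without Autonomic 1, -2.28 without NCSCs 2 and -0.78 without NCSCs 4. Glia minus Autonomic was -1.79 for Ntn1, and -1.05 without Autonomic 1. The second Ntn1 probe set changed by -0.33, 0.29 and 0.15. In each of the 4 groups the array with the highest Ntn1 level (Glia 1, Autonomic 1, Mesenchymal 3 and NCSCs 4) also had the highest summed neural tube markers, at intensities of 317, 2155, 1217 and 2078. Their part in the Ntn1 values was not tested. Ntn4, a netrin of basement membranes, ran from 2.69 to 7.56 in Glia, from 2.97 to 6.50 in Autonomic and from 2.61 to 4.32 in Mesenchymal, against 2.33 to 5.28 in NCSCs, with no change past the test. Its change in Autonomic was 0.73, and 0.0090 without Autonomic 1.

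**Figure D2:**
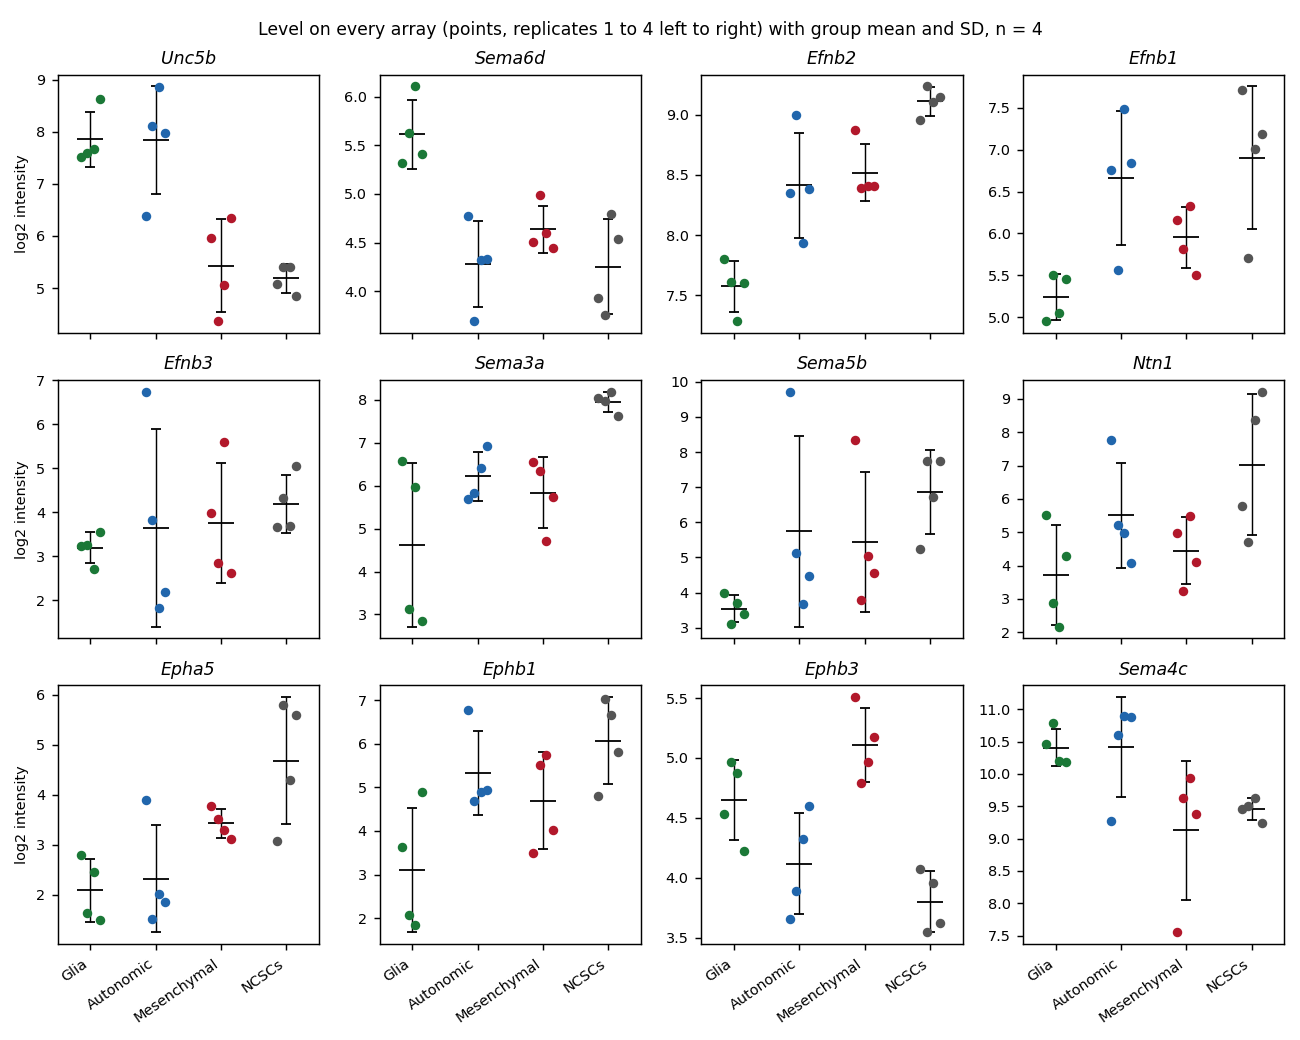
Log2 intensity (vertical axes, each with its own range) of 12 guidance genes on every array, with replicates 1 to 4 from left to right in each group and bars for the group mean and SD (n = 4). Unc5b is at 6.39 or more on all Glia and Autonomic arrays and at most 5.41 on the NCSCs arrays, while Efnb2 is at most 7.80 on the Glia arrays and at least 8.95 on the NCSCs arrays.

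B-class ephrins are membrane-spanning ligands. Efnb2, a ligand of the posterior somite, avoided by crest cells, and of arteries, had levels of 7.80, 7.61, 7.28 and 7.60 in Glia, against 8.95, 9.24, 9.10 and 9.15 in NCSCs. All Glia arrays were below all NCSCs arrays by more than 1 on the log2 scale. Efnb2 fell 2.90-fold in Glia, a log2 change of -1.54 (SE 0.21, adjusted p = 0.00392). Autonomic levels were 8.35, 9.00, 7.94 and 8.38, a log2 change of -0.70 from NCSCs (adjusted p = 0.204), and 1 of these arrays overlapped NCSCs. Mesenchymal levels were 8.87, 8.39, 8.41 and 8.40, a change of -0.59 (adjusted p = 0.525), all below NCSCs. The order of means was therefore Glia, Autonomic, Mesenchymal and NCSCs from low to high, and the 95% interval of Autonomic minus Mesenchymal, -0.55 to 0.34, spanned 0. Glia differed from Autonomic by -0.84 (adjusted p = 0.377) and from Mesenchymal by -0.95 (adjusted p = 0.0970), neither past the test. The 4 probe sets of Efnb2 had log2 changes in Glia of -1.54, -0.91, -1.80 and -1.97. Their changes were -0.70, -1.17, -1.40 and -1.64 in Autonomic and -0.59, -0.24, -0.99 and -0.20 in Mesenchymal. In place of the brightest, the probe set at -1.80 in Glia passed the test (adjusted p = 0.00205). Those at -0.91 and -1.97 did not (adjusted p = 0.209 and 0.229). The call of Efnb2 in Glia at its brightest probe set held with each single array left out. With the Gapdh ratio as a covariate the change was -1.46 (adjusted p = 0.0768), and with the Xist level it was -1.31 (adjusted p = 0.0826).

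The other B-class ephrins were also lower on every Glia array than on every NCSCs array, without passing the test. Efnb1, an X-linked ephrin needed for craniofacial crest development, had levels of 4.95, 5.50, 5.05 and 5.46 in Glia, against 7.71, 5.70, 7.01 and 7.19 in NCSCs. NCSCs 2, at 5.70, lay nearest to the Glia arrays. The log2 change of Efnb1 was -1.66 in Glia (SE 0.42, adjusted p = 0.115), -0.24 in Autonomic and -0.95 in Mesenchymal, and with the Xist level as a covariate it was -1.97 in Glia (adjusted p = 0.224). Efnb1 passed the test in Glia under 2 of 29 alternatives. These were without NCSCs 2 (-2.06, adjusted p = 0.0407) and with the mean of its probe sets in place of the brightest (-1.12, adjusted p = 0.0311). Over all of them its adjusted p ran up to 0.457. Efnb3, the ephrin of the spinal midline, had levels of 3.24, 3.26, 2.71 and 3.55 in Glia, against 3.67, 4.34, 3.70 and 5.06 in NCSCs. Autonomic 1 and Mesenchymal 3, at 6.74 and 5.60, were its highest arrays, and both are high in neural tube markers, whose part was not tested. Efnb3 changed by -0.997 in Glia (95% interval -2.90 to 0.90, adjusted p = 0.785). In Autonomic its change was -0.55, and -1.58 without Autonomic 1.

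A-class ephrins are tethered to the membrane by a lipid anchor, and 0 of the 5 passed the test in any comparison with NCSCs. Efna5, the brightest of them and a repellent for axons in the visual system, had levels of 9.31, 5.40, 7.67 and 4.70 in Glia, against 7.50, 6.75, 7.80 and 6.69 in NCSCs. The Glia arrays lay on both sides of the NCSCs arrays, and the log2 change was -0.41 (95% interval -2.09 to 1.26). Over the family, with Efna1 to Efna4, the changes ran from -0.48 to 0.64 in Glia, from -0.58 to 0.37 in Autonomic and from -0.80 to 0.29 in Mesenchymal.

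Eph receptors are receptor tyrosine kinases, and 0 of 7 A-class and 0 of 4 B-class members passed the test in these comparisons. Ephb1, an ephrin-B receptor, had levels of 3.63, 2.06, 1.84 and 4.88 in Glia and of 6.78, 4.69, 4.90 and 4.95 in Autonomic, against 4.80, 7.03, 6.67 and 5.80 in NCSCs. Glia 2 and Glia 3 were low, and Glia 4 overlapped NCSCs 1. The log2 change of Ephb1 was -2.97 in Glia (SE 0.74, adjusted p = 0.112), and Glia minus Autonomic was -2.23 (adjusted p = 0.647, and -1.74 without Autonomic 1). Glia minus Mesenchymal was -1.59 for Ephb1 (adjusted p = 0.707).

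Ephb3, another ephrin-B receptor, went the other way. Its levels were 4.53, 4.96, 4.87 and 4.23 in Glia and 5.51, 4.79, 4.96 and 5.17 in Mesenchymal, against 4.08, 3.55, 3.95 and 3.62 in NCSCs, with no overlap for either group. Ephb3 changed by 0.85 in Glia (adjusted p = 0.180), 0.32 in Autonomic (adjusted p = 0.737) and 1.31 in Mesenchymal (SE 0.24, adjusted p = 0.107), the largest positive change among the members in Mesenchymal. Ephb4, the brightest B-class receptor and the venous partner of Efnb2, averaged 6.78 ± 0.956 in Glia, 5.39 ± 0.611 in Autonomic and 5.40 ± 0.816 in Mesenchymal, against 5.65 ± 0.953 in NCSCs (SD, n = 4). Its log2 difference between Glia and Autonomic was 1.39 (adjusted p = 0.758) and between Glia and Mesenchymal 1.37 (adjusted p = 0.622).

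Epha5, an A-class receptor of axons, had levels of 2.80, 1.64, 2.45 and 1.49 in Glia and of 3.90, 1.52, 2.02 and 1.87 in Autonomic, against 3.07, 5.79, 4.29 and 5.58 in NCSCs. All Glia arrays were below NCSCs, and Autonomic 1 overlapped them. The log2 change of Epha5 was -2.59 in Glia (SE 0.59, adjusted p = 0.0797), -2.35 in Autonomic (adjusted p = 0.122) and -1.26 in Mesenchymal (adjusted p = 0.648). Without Autonomic 1 the change in Autonomic was -2.88 (adjusted p = 0.0189) and the adjusted p in Glia was 0.0274. Epha5 passed under 2 of 28 alternatives in Glia, where its change ran from -3.48 to -0.75, and 1 of 28 in Autonomic. Autonomic minus Mesenchymal was -1.10 for Epha5 (adjusted p = 0.704, and -1.62 without Autonomic 1). The brightest probe set of Epha5 is itself dim, at a mean of 3.13 over the 16 arrays, below the median gene level of 3.90. Its other 3 probe sets, which are dimmer, changed by -0.03, -0.12 and -0.25 in Glia, so the difference was seen at 1 of 4. Epha4, the brightest A-class receptor and one that binds both ephrin classes, changed by -1.30 in Glia, -1.04 in Autonomic and -0.996 in Mesenchymal, none past the test. The 5 other A-class receptors (Epha1, Epha2, Epha3, Epha7 and Epha8) and Ephb6 did not pass in any of these comparisons, and over the A class 5 of 7 changes were below 0 in each primed group.

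**Figure D3:**
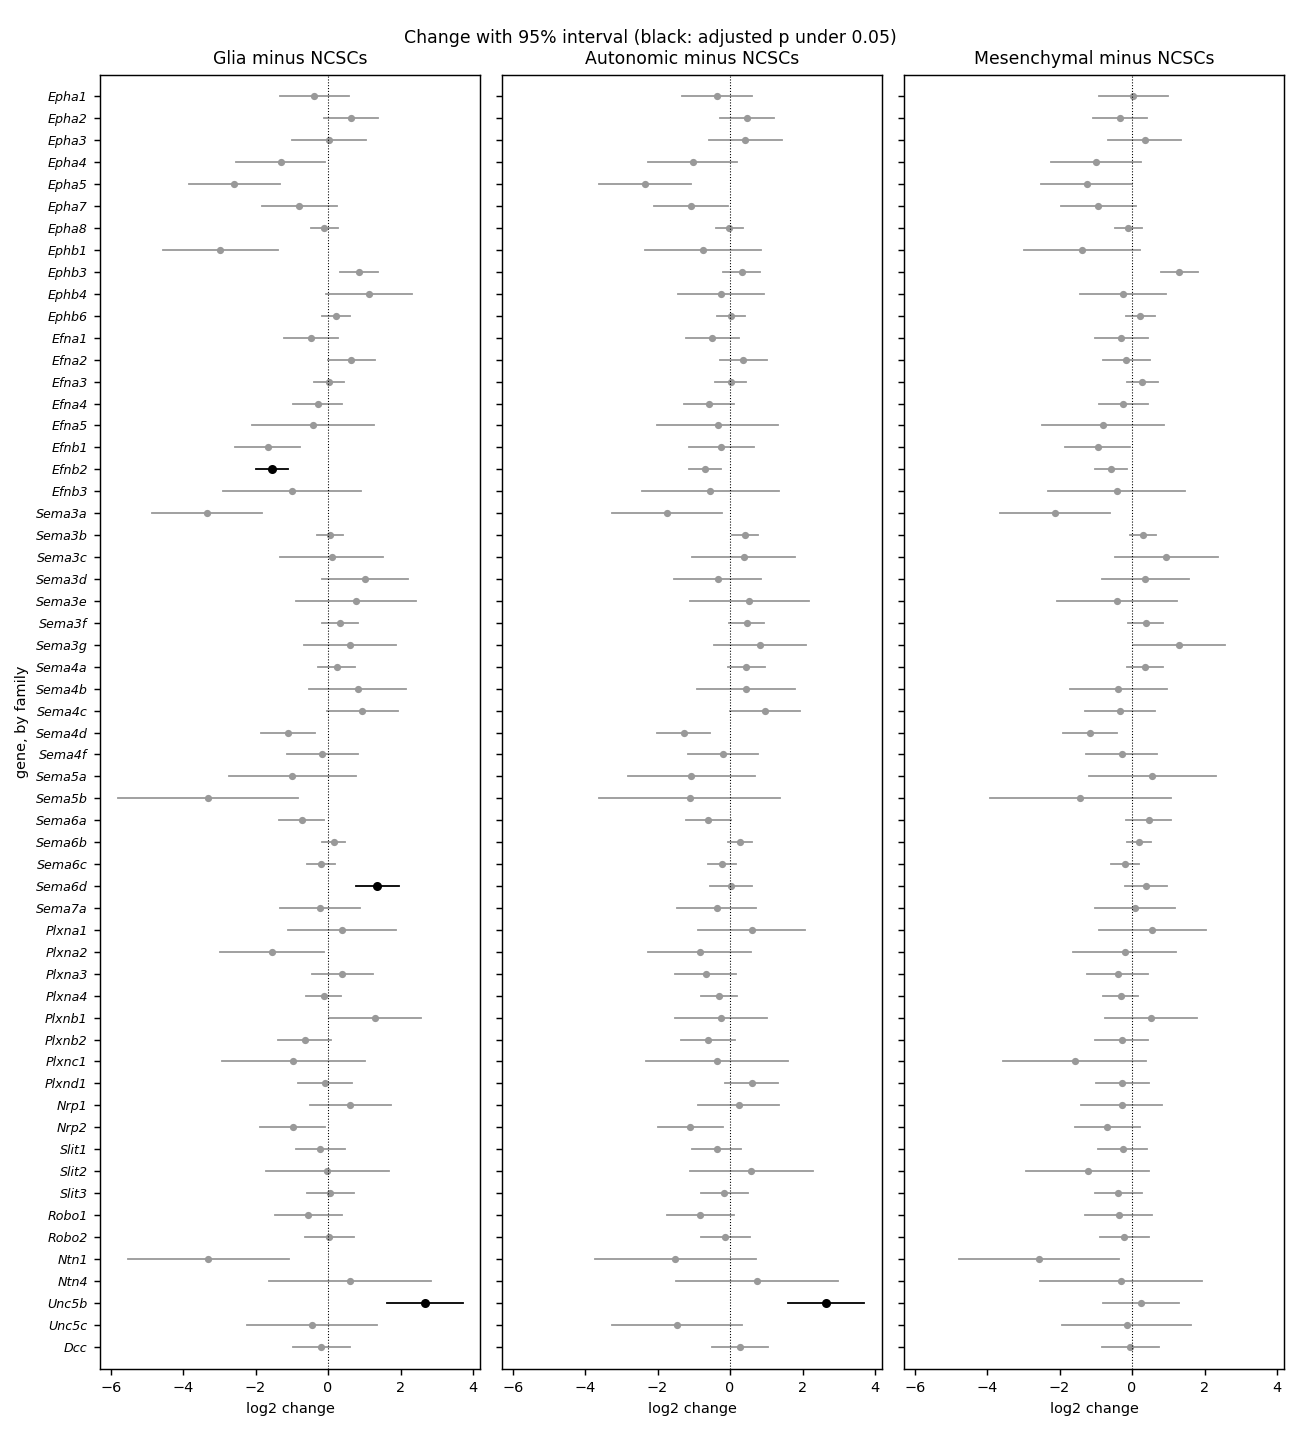
Log2 change of each of the 58 guidance genes (rows, by family) in Glia, Autonomic and Mesenchymal minus NCSCs, with the 95% interval. Black marks the changes past an adjusted p of 0.05, which are Efnb2 (-1.54), Sema6d (1.36) and Unc5b (2.67) in Glia and Unc5b in Autonomic.

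Among the secreted class 3 semaphorins, 0 of 7 passed the test in any comparison with NCSCs. Sema3a, a repellent of crest cells and sensory axons, had levels of 6.57, 3.12, 5.96 and 2.85 in Glia, 5.70, 5.84, 6.41 and 6.92 in Autonomic and 6.55, 6.35, 4.72 and 5.74 in Mesenchymal, against 8.04, 7.99, 8.18 and 7.63 in NCSCs. Every primed array lay below every NCSCs array, with Glia 2 and Glia 4 lowest. The log2 change of Sema3a was -3.33 in Glia (SE 0.71, adjusted p = 0.0564), -1.74 in Autonomic (adjusted p = 0.423, and -1.57 without Autonomic 1) and -2.12 in Mesenchymal (adjusted p = 0.492). The SD was 1.91 in Glia, against 0.232 in NCSCs (n = 4 each). A second probe set of Sema3a changed by -3.21, -2.99 and -2.65 in Glia, Autonomic and Mesenchymal, and the third, dimmest one by -0.49, -0.27 and -0.54. With the mean of its probe sets in place of the brightest, Sema3a passed the test in Glia (-2.34, adjusted p = 0.00364) and in Autonomic (-1.67, adjusted p = 0.0396). It also passed in Glia without Glia 1 (adjusted p = 0.0166) and without Autonomic 1 (adjusted p = 0.0494). Sema3a passed under 7 of 29 alternatives in Glia and 1 of 29 in Autonomic. Its adjusted p ran up to 0.265 in Glia and 0.572 in Autonomic.

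The other class 3 genes gave smaller differences. Sema3g, a ligand of Nrp2 on vessels, changed by 0.60 in Glia, 0.82 in Autonomic and 1.30 in Mesenchymal (adjusted p = 0.644 in Mesenchymal). In Autonomic the Sema3g change was 1.18 without Autonomic 1 and 0.46 without Autonomic 3. Sema3c, which acts on crest cells of the heart outflow tract, averaged 5.46 ± 0.846 in Mesenchymal, against 4.51 ± 1.23 in NCSCs (SD, n = 4 each), a log2 change of 0.95 (95% interval -0.47 to 2.37), and 1.56 without NCSCs 3. Sema3d was near the bottom of the scale, and Glia exceeded Autonomic by 1.37 (adjusted p = 0.762, and 0.75 without Glia 4), with Glia 4 at 4.47 and the other Glia arrays at 1.94 to 2.08. Sema3b, a class 3 ligand, averaged 3.50 ± 0.167 in Autonomic, against 3.09 ± 0.190 in NCSCs (SD, n = 4 each), without overlap (log2 change 0.41, adjusted p = 0.423). Sema3e and Sema3f did not pass the test either, and 6 of the 7 class 3 changes in Glia lay above 0, Sema3a being the exception.

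Class 4 semaphorins span the membrane, and 0 of 5 passed the test in these comparisons. Sema4c, the brightest of the class and a ligand of Plxnb2, had levels of 10.47, 10.78, 10.20 and 10.18 in Glia, 9.27, 10.60, 10.90 and 10.88 in Autonomic and 7.56, 9.63, 9.94 and 9.39 in Mesenchymal, against 9.46, 9.50, 9.63 and 9.24 in NCSCs. All Glia arrays and Autonomic 2 to 4 lay above NCSCs. The log2 change of Sema4c was 0.95 in Glia (adjusted p = 0.512) and 0.96 in Autonomic (adjusted p = 0.523, log2 change 1.34 without Autonomic 1). Glia exceeded Mesenchymal by 1.28 and Autonomic exceeded it by 1.29, neither past the test (adjusted p = 0.519 and 0.397). Without Mesenchymal 1 these differences were 0.76 and 0.76. Sema4d, a ligand of Plxnb1, had levels of 2.71, 2.99, 3.22 and 2.74 in Glia and 3.14, 3.01, 2.87 and 1.98 in Autonomic, against 3.29, 4.86, 3.89 and 4.08 in NCSCs. Neither primed group overlapped NCSCs, and the log2 changes were -1.11 and -1.28 (adjusted p = 0.234 and 0.154), the second being -1.41 without Autonomic 1. The probe set used for Sema4d is dim, at a mean of 3.14 over the 16 arrays, below the median gene level of 3.90. Its other probe sets changed by -0.21 and 0.17 in Glia. With Sema4a, Sema4b and Sema4f, the class ran from -1.16 to 0.36 in Mesenchymal.

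Of the 7 semaphorins of classes 5 to 7, Sema6d rose in Glia. Sema6d, a membrane semaphorin that binds Plxna1 in the chick heart, had levels of 5.31, 5.63, 6.10 and 5.40 in Glia, against 3.93, 3.75, 4.79 and 4.54 in NCSCs. All Glia arrays lay above all arrays of the other 3 groups, where Autonomic ran from 3.69 to 4.77 and Mesenchymal from 4.44 to 4.99. The log2 change was 1.36 in Glia (SE 0.28, adjusted p = 0.0452), 2.56-fold. It was 0.03 in Autonomic (95% interval -0.57 to 0.62, and -0.14 without Autonomic 1) and 0.38 in Mesenchymal (95% interval -0.21 to 0.97). Glia exceeded Autonomic by 1.33 (adjusted p = 0.207) and Mesenchymal by 0.98 (adjusted p = 0.279), neither past the test. The other 3 probe sets of Sema6d changed by 1.44, 0.36 and 0.12 in Glia, none past the test (adjusted p = 0.585, 0.695 and 0.898). This call was the least stable: 22 of the 32 alternatives lost it, among them 13 of the 16 that left out an array (adjusted p up to 0.132), and with the Gapdh ratio as a covariate the change was 0.98 (adjusted p = 0.365).

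Sema5b, a membrane semaphorin of the developing nervous system, had levels of 3.98, 3.10, 3.71 and 3.38 in Glia, 9.72, 5.13, 3.66 and 4.47 in Autonomic and 8.33, 3.79, 5.05 and 4.56 in Mesenchymal, against 5.23, 7.74, 6.72 and 7.75 in NCSCs. The Glia arrays were all below NCSCs, while Autonomic 1 and Mesenchymal 1 were the highest of the 16. The log2 change of Sema5b in Glia was -3.31 (95% interval -5.81 to -0.82, adjusted p = 0.316), and its second probe set changed by -1.04. Glia minus Autonomic was -2.20 for Sema5b, and -0.88 without Autonomic 1. In Autonomic the Sema5b change from NCSCs was -1.11, and -2.44 without Autonomic 1. Glia minus Mesenchymal was -1.89, and -0.92 without Mesenchymal 1. Sema5a, its relative, differed from Mesenchymal by -1.55 in Glia (adjusted p = 0.776) and by -1.64 in Autonomic (adjusted p = 0.657, and -1.72 without Autonomic 1). Sema6a, another membrane semaphorin, averaged 4.65 ± 0.282 in Glia, 4.77 ± 0.494 in Autonomic and 5.83 ± 0.600 in Mesenchymal, against 5.38 ± 0.164 in NCSCs (SD, n = 4). Its difference from Mesenchymal was -1.19 in Glia (adjusted p = 0.159) and -1.06 in Autonomic (adjusted p = 0.206). Sema6b, Sema6c and Sema7a did not pass the test.

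Plexins are the signalling receptors of the semaphorins, and 0 of 8 passed the test. Plxna1, the brightest of them and a partner of the neuropilins, changed by 0.38, 0.60 and 0.55 in Glia, Autonomic and Mesenchymal, with NCSCs arrays from 6.22 to 10.08. Plxnb1, the receptor of Sema4d, had levels of 6.86, 5.92, 7.55 and 7.18 in Glia and of 6.98, 4.83, 5.39 and 4.08 in Autonomic, against 5.81, 4.04, 5.90 and 6.57 in NCSCs. The groups overlapped. Its log2 change in Glia was 1.30 (adjusted p = 0.492, and 0.78 without NCSCs 2), and Glia exceeded Autonomic by 1.56 (adjusted p = 0.737, 2.11 without Autonomic 1). Plxnc1, the receptor of Sema7a, changed by -1.59 in Mesenchymal (95% interval -3.56 to 0.38), and by -0.93 without NCSCs 4. Plxna2, a receptor of class 6 semaphorins, averaged 3.65 ± 0.792 in Glia, against 5.20 ± 1.42 in NCSCs (SD, n = 4 each), a change of -1.55 (adjusted p = 0.449). Plxna3, Plxna4, Plxnb2 and Plxnd1 did not pass either.

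Neuropilins bind class 3 semaphorins and lend specificity to plexins. Nrp1, the neuropilin that binds Sema3a, changed by 0.61 in Glia at its brightest probe set (95% interval -0.50 to 1.73). Its other 3 probe sets changed by 1.32 (SE 0.47), 1.78 (SE 0.77) and 2.56 (SE 0.42), so all 4 values lay above 0. Nrp2, which binds Sema3f, had levels of 6.36, 6.48, 6.84 and 6.46 in Glia, against 7.94, 7.71, 7.27 and 7.12 in NCSCs. The groups did not overlap, and the log2 change was -0.97 (adjusted p = 0.449). In Autonomic the change of Nrp2 was -1.09, and -0.73 without Autonomic 1, and in Mesenchymal -0.68.

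**Figure D4:**
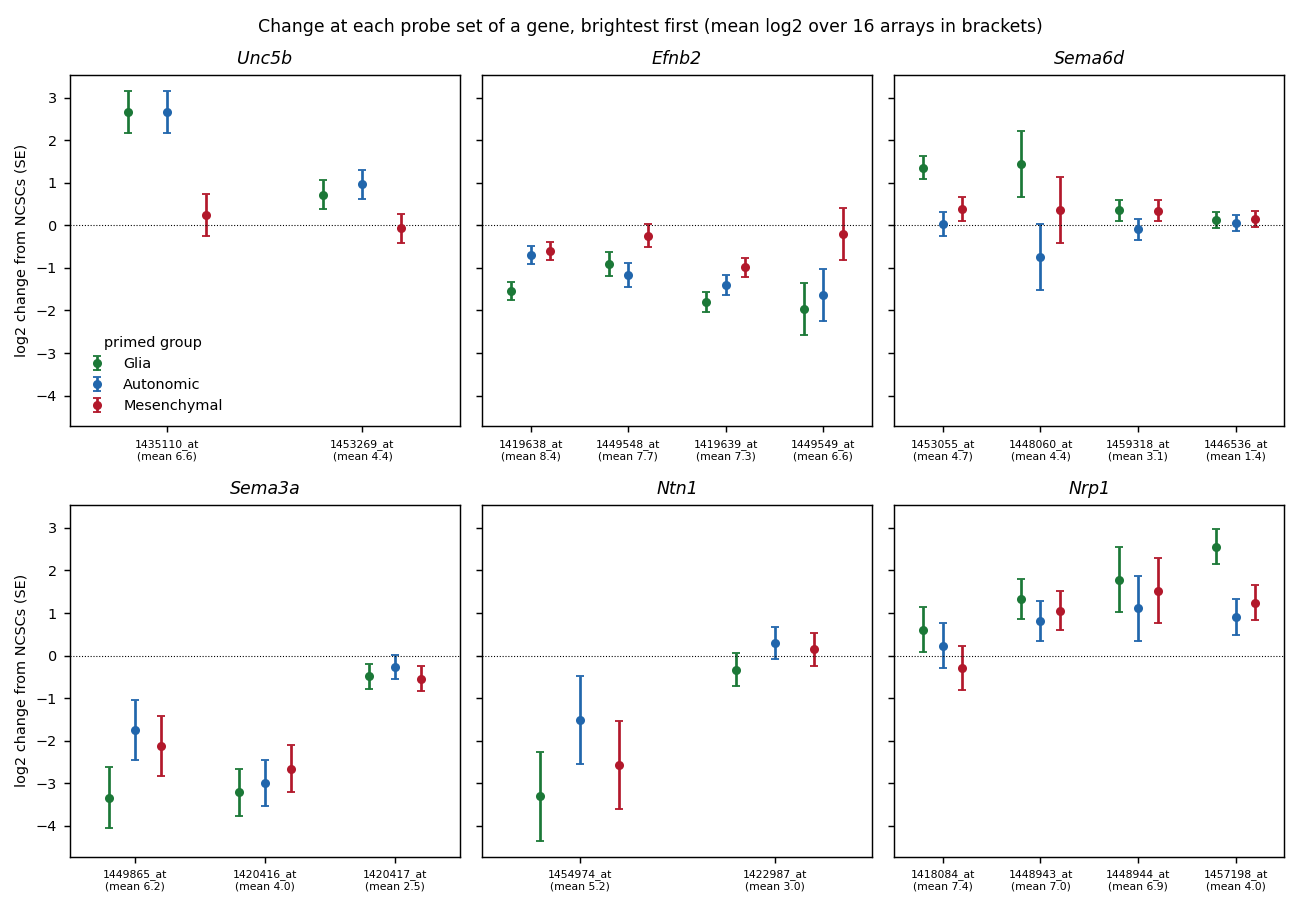
Log2 change from NCSCs (vertical axis, bars are the SE) at each probe set of 6 guidance genes, brightest first, in Glia, Autonomic and Mesenchymal. All 4 probe sets of Efnb2 lie below 0 in all groups and all 4 of Nrp1 lie above 0 in Glia, while the second probe set of Ntn1 is at -0.33, 0.29 and 0.15 in Glia, Autonomic and Mesenchymal, nearer to 0 than the brightest and on the other side of it in Autonomic and Mesenchymal.

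Slits and Robos gave no change past the test, with 0 of 3 and 0 of 2. Slit1, the brightest Slit, changed by -0.22, -0.37 and -0.26 in Glia, Autonomic and Mesenchymal. Slit2, a repellent of trunk crest cells in the chick, had levels of 4.71, 5.93, 5.46 and 6.51 in Autonomic, against 2.37, 3.92, 5.01 and 4.08 in Mesenchymal. These overlapped only in the high Mesenchymal 3 and the low Autonomic 1, and the log2 difference was 1.81 (adjusted p = 0.563, 2.12 without Autonomic 1). Robo1, the brighter Slit receptor, averaged 8.02 ± 0.601 in Glia, 7.74 ± 0.927 in Autonomic and 8.20 ± 0.616 in Mesenchymal, against 8.56 ± 0.266 in NCSCs (SD, n = 4), with changes of -0.55, -0.83 and -0.37. Over Slit1, Slit2 and Slit3 the changes in Glia ran from -0.22 to 0.06, and Robo2 changed by 0.03 in Glia.

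Between primed groups limma called 0 of the 58 members in all 3 comparisons. In Glia against Autonomic 10 members had an unadjusted p under 0.05 (6.24% of all genes), and 0.011% of all genes passed the adjusted threshold. In Glia against Mesenchymal 9 members had such an unadjusted p (7.05% of all genes), and 0.225% of all genes passed. In Autonomic against Mesenchymal 7 members did (8.23% of all genes), and 0.346% of all genes passed. Arrays did not overlap for 2 members higher and 3 lower in Glia than in Autonomic (1.36% and 1.6% of all genes). The same counts were 3 and 4 for Glia against Mesenchymal (2.09% and 2.46%), and 1 and 1 for Autonomic against Mesenchymal (2.09% and 2.08%).

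Other genes of the same pathways were listed as well. Of 20 related guidance genes that are not among the members, some of them relatives of members such as Epha6 and Unc5a and all measured, 0 passed the test against NCSCs in each primed group, with medians of 0.06 in Glia, 0.10 in Autonomic and 0.21 in Mesenchymal. Rgmb, a co-receptor for bone morphogenetic proteins that binds the netrin receptor neogenin, was the 1 called between primed groups. It averaged 4.35 ± 0.825 in Glia, against 6.49 ± 0.613 in Mesenchymal (SD, n = 4 each), a log2 difference of -2.14 (SE 0.37, adjusted p = 0.0307). The NCSCs mean of Rgmb was 4.92 ± 0.405 (SD, n = 4). From it Glia differed by -0.57 (adjusted p = 0.682) and Mesenchymal by 1.57 (adjusted p = 0.264). Of 54 measured effectors that act inside the cell or beside the receptors, 0 of 54 passed against NCSCs in each primed group. Dpysl3, a collapsin response mediator of the cytoskeleton, averaged 8.82 ± 0.490 in Glia and 9.08 ± 0.388 in Autonomic, against 7.18 ± 0.543 in Mesenchymal (SD, n = 4 each). Relative to Mesenchymal, Dpysl3 was higher by 1.64 in Glia (adjusted p = 0.0381) and by 1.90 in Autonomic (adjusted p = 0.0114). L1cam, an adhesion molecule in the Sema3a receptor complex, averaged 8.11 ± 0.584 in Glia, against 5.54 ± 0.897 in NCSCs (SD, n = 4 each), without overlap (log2 change 2.57, adjusted p = 0.0564).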

How the data were processed

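RNA from 16 samples (2 ug each) was labelled by the one-cycle protocol and hybridised to Affymetrix arrays, 4 per group, per the labels' protocols. The deposited values are RMA intensities per the submitters' processing notes; they run from 1.49 to 31600, a linear scale where log2 values had been planned for, so log2 was taken with no offset. Of 45101 probe sets, 34958 carry 1 gene symbol, 932 several and 9211 are not listed in the annotation; 99.4% of the single symbols were updated by Entrez ID. The brightest probe set by mean over all arrays represented each of 18194 genes. One mean per group was fitted over the 16 arrays with limma 3.58.1 in R 4.3.3, using 6 comparisons, Benjamini-Hochberg adjustment over all genes and a threshold of 0.05; it was tested on simulated data. SE and 95% intervals are from that fit.

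The members and lists were chosen with earlier results of these data known. Named were the called members, those without overlap that changed at least 2-fold against NCSCs, the 3 largest changes in each direction per comparison, the brightest member of each family, and called genes of the other lists. Plxna2, Sema3b, Nrp2, Sema6a and L1cam are also given, chosen after their values were seen. Values of Efnb3, Ntn4, Dcc and some other members are given as well, though that rule does not name them. Alternatives were other scalings, an offset, filters, probe-set rules, covariates, the replicate block and leaving out each array. The Xist covariate and the other probe sets of called members were added after seeing the data. No source says whether replicates were separate cultures, so p-values measure the spread between these samples, which may be technical. The number of arrays limits the precision.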

Additional observations from a re-analysis of the deposited data

Results flagged for a closer look

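In 84 groups of 4 arrays, over 21 named members, 7 held 1 array far from the other 3, and chance gives about 1 in 20 groups. For Efnb2, Mesenchymal 1 was at a log2 level of 8.87, with the others at 8.39 to 8.41. For Unc5b, Glia 4 was at 8.63, with the others at 7.52 to 7.68. The Ephb4 level of Autonomic 4 was 4.48, below 5.62 to 5.77 in the others. The Ephb1 level of Autonomic 1 was 6.78, above 4.69 to 4.95 in the others. NCSCs 3 stood out for Sema3c, at 6.33 with the others at 3.75 to 4.07, and for Sema3d, at 2.38 with the others at 1.23 to 1.42. Glia 4 was also high for Sema3d, at 4.47 with the others at 1.94 to 2.08.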

How the results depend on the processing

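The changes of 21 named members were recomputed under the alternatives in the comparisons for which each was named, and none took the other sign there. In other comparisons some named members did change sign without Autonomic 1. Examples are Sema6d in Autonomic against NCSCs (0.03 to -0.14) and Unc5b in Glia against Autonomic (0.02 to -0.47). Other probe sets were run as alternatives for the called members alone. Those of Ntn1 and Sema4d include changes of the other sign, as given with their values. All 58 members, with Nrp2, Plxna2, Sema3b and Sema6a among them, were recomputed in Autonomic comparisons without Autonomic 1. This turned the sign of 4 of 58 changes against NCSCs, 10 of 58 in Glia against Autonomic and 4 of 58 in Autonomic against Mesenchymal. The 3 members called in Glia against NCSCs became 1 with the replicate block (Efnb2), 1 with the Gapdh ratio and 1 with the Xist level as a covariate (Unc5b in both), and 5 with array weights, which added Ephb1 and Sema3a; leaving out an array gave 1 to 5, with 1 without NCSCs 4 or Glia 2, 3 or 4 and 5 without Autonomic 1. The 1 member called in Autonomic against NCSCs became 0 with the replicate block, 0 with only the groups compared and 3 with the mean of a gene's probe sets (Efnb2, Sema3a, Unc5b); leaving out an array gave 0 to 2. Array weights called 1 member in Mesenchymal against NCSCs (Ephb3). In Glia against Mesenchymal, where 0 were called, 1 was called with dim genes left out, with the Gapdh ratio and with Xist (Unc5b each time), 2 with the mean of probe sets (Efnb2, Sema6a) and 0 to 1 without an array. In Autonomic against Mesenchymal, 1 was called with dim genes left out, with array weights and with Xist (Unc5b), 2 with the mean of probe sets (Sema6a, Unc5b) and 0 to 1 without an array. Glia against Autonomic had 0 under all 29 alternatives. The causes were not tested. Replicate numbers did not pair the arrays: over 24 same-numbered pairs r was -0.067 to 0.064, and 2 of 16 arrays correlated best with their own number. With the block the adjusted p was 0.0113 for Efnb2, 0.0801 for Sema6d and 0.0577 for Unc5b in Glia, and 0.0561 for Unc5b in Autonomic. Over all genes, calls against NCSCs were 93 in Glia (25 to 168 over the alternatives), 79 in Autonomic (17 to 237) and 4 in Mesenchymal (0 to 9). They were 2 in Glia against Autonomic (0 to 7), 41 in Glia against Mesenchymal (14 to 68) and 63 in Autonomic against Mesenchymal (26 to 141). Leaving out dim genes moved the median of all genes to -0.11 in Glia, -0.086 in Autonomic and -0.11 in Mesenchymal. Of the 58 members 34 lay above the median gene level of 3.90, and dimmer ones are measured less surely.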
